A study of Saccharomyces cerevisiae with 12 samples.

Results

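Serine and glycine metabolism in budding yeast (Saccharomyces cerevisiae) was followed through 8 genes, taken by name out of the 6713 targets measured: SER3 (YER081W), SER33 (YIL074C), SER1 (YOR184W), SER2 (YGR208W), CHA1 (YCL064C), SHM1 (YBR263W), SHM2 (YLR058C) and GLY1 (YEL046C). Messenger RNA was sequenced from 12 libraries in the S288c background, 3 for each of 4 genotypes. SWI3 S237A carries an alanine in place of a serine in Swi3, a core subunit of the SWI/SNF nucleosome remodeller. RPD3 S418A carries an alanine in place of a serine in Rpd3, a histone deacetylase. RPD3 KO lacks the RPD3 gene, and the wild type (WT) carries neither change. All 12 libraries were labelled as synthetic defined medium and were harvested at an OD600 of 0.4. A treatment text shared by all samples says that a part of them had caffeine, the labels do not say which libraries, if any, these are, and whether the medium held serine or glycine is not stated. Nothing in the labels says that libraries of one strain were grown separately, so p-values measure the spread between these libraries, which may be technical.

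Yeast makes serine from the glycolytic intermediate 3-phosphoglycerate in a short chain of enzymes, and turns serine and glycine into each other with serine hydroxymethyltransferase, which passes a one-carbon unit to folate. Glycine is also made by splitting threonine. The first enzyme of serine synthesis is encoded by a pair of related genes, SER3 and SER33. In cells with serine, SER3 is known to be held down by transcription of the non-coding RNA SRG1 across its promoter, a process in which the activator Cha4 and SWI/SNF take part, while Cha4 switches on CHA1 for serine breakdown.

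The libraries held 18.29 to 26.95 M estimated counts each. RPD3 had 0 counts in all 3 RPD3 KO libraries and 2186 to 2567 in each of the other libraries, as its label states, while counts cannot show the point mutations. WT replicate 1 stood apart from its group: 2.94% of the 6327 tested genes lay over 2-fold from the mean of the other WT libraries, against 0.3% for replicate 9 and 0.553% for replicate 17. Several results below are also given without it. Levels below are CPM (counts per M of the library, scaled by TMM), which serve to compare one gene between strains. Each log2 fold change is followed by its SE and by the Benjamini-Hochberg adjusted p of edgeR's quasi-likelihood test. Fewer cells with a transcript and less of it in each cell cannot be told apart in such bulk RNA.

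SER3 in SWI3 S237A had the largest change from WT of the 8 genes in any mutant. In SWI3 S237A 5 of the 8 rose (SER3, SER33, SER1, SHM1 and GLY1) and 0 fell, in a comparison where 28.7% of all tested genes rose and 60% changed in either direction. In RPD3 S418A 0 of the 8 passed, where 0.822% of all genes rose and 2.02% changed. In RPD3 KO 3 of the 8 rose (SER3, SHM1 and GLY1) and 0 fell, where 31.9% of all genes rose and 69.9% changed. Taken in either direction, the count called was thus near the background in SWI3 S237A and below it in RPD3 KO. Set against the share that rose, it was higher in SWI3 S237A and near that share in RPD3 KO, a difference that was not tested. The median log2 change of the 8 was 0.95 in SWI3 S237A, against -0.02 over all tested genes. It was -0.09 in RPD3 S418A (0.00 over all genes) and 0.11 in RPD3 KO (-0.06 over all genes). Without WT replicate 1, 7 of the 8 rose in SWI3 S237A, 1 in RPD3 S418A and 6 in RPD3 KO, where 63.7%, 4.28% and 71.3% of all genes changed. That brought the RPD3 KO count near the background of changes in either direction. The medians of the 8 were then 1.10 in SWI3 S237A, 0.11 in RPD3 S418A and 0.39 in RPD3 KO. The 3 comparisons share the WT libraries.

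**Figure D1:**
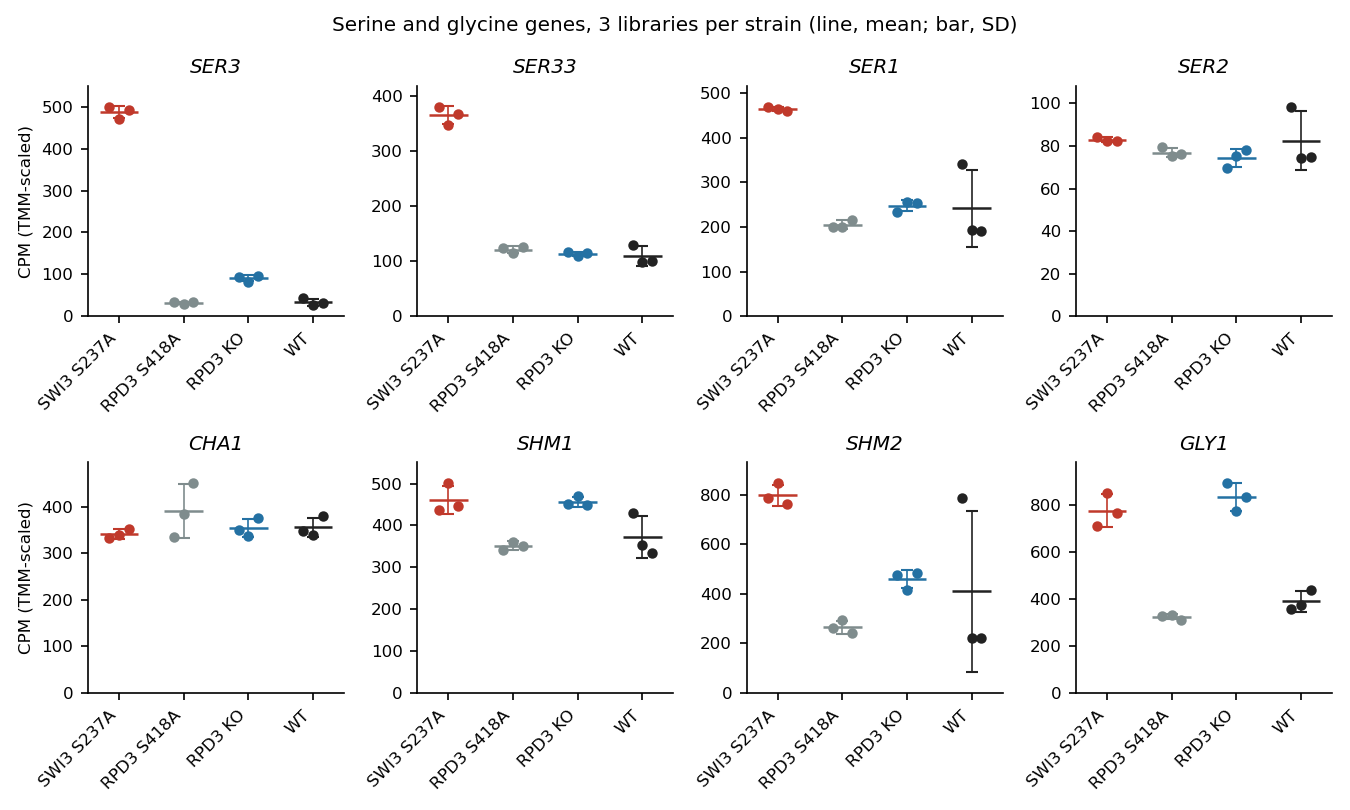
Level of each of the 8 genes in every library (points), with the mean (line) and SD (bar) of each strain; the y axis is CPM scaled by TMM and starts at 0. SER3 stands at 471 to 499 CPM in SWI3 S237A, and WT replicate 1 is the WT library at 786 CPM of SHM2.

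SER3 encodes 3-phosphoglycerate dehydrogenase, which commits carbon to serine, and lies on chromosome V from 322686 to 324095 on the plus strand (R64). SER3 had 499, 471 and 492 CPM in SWI3 S237A replicates 2, 10 and 18. It had 33.0, 30.3 and 33.2 CPM in RPD3 S418A replicates 3, 11 and 19, and 94.7, 82.2 and 95.6 CPM in RPD3 KO replicates 4, 12 and 20. The WT replicates 1, 9 and 17 had 42.7, 26.7 and 30.7 CPM. SWI3 S237A thus stood highest and RPD3 KO second, each clear of the other strains, while RPD3 S418A lay inside the WT range.

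In SWI3 S237A the SER3 transcript was 14.6-fold higher than in WT (log2 3.87 ± 0.15, adjusted p = 4.78e-10), rank 17 by log2 change among 6327 genes. In RPD3 KO it was 2.72-fold higher than in WT (log2 1.44 ± 0.14, adjusted p = 1.06e-06), rank 432. In RPD3 S418A its change from WT did not pass (log2 -0.05 ± 0.14, adjusted p = 0.865), with a 95% interval of -0.35 to 0.24. SWI3 S237A and RPD3 KO also differed from each other: SER3 was 5.37-fold higher in SWI3 S237A (log2 2.42 ± 0.14, adjusted p = 1.9e-08). It was 15.2-fold higher in SWI3 S237A than in RPD3 S418A (log2 3.92 ± 0.15, adjusted p = 3.95e-10), and lower in RPD3 S418A than in RPD3 KO (log2 -1.50 ± 0.14, adjusted p = 6.67e-07). RPD3 S418A and WT were the neighbours in this order that did not differ beyond their spread. The authors' deposited table gives log2 changes of 3.89 for SWI3 S237A, -0.06 for RPD3 S418A and 1.49 for RPD3 KO.

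The window printed here runs from 250 bases before to 50 bases after the start of the SER3 coding frame (chrV:322436-322735, R64, plus strand, read from the RefSeq genome). It is shown because it is the stretch across which SRG1 is transcribed: SRG1 is annotated from 322212 to 322762 on the same strand, so the whole window lies inside it. Capitals mark the letters TATAAA, found at -103 to -98 and at -29 to -24, counted from the frame's first base as 0.
SER3: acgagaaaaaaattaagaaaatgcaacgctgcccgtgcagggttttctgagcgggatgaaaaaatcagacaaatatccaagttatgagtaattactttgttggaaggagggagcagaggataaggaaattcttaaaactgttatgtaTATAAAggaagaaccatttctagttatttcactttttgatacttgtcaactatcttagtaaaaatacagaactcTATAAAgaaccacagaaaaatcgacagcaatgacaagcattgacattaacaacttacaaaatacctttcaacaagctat
Those letters, on either strand, occur in 45.2% of the 6001 windows of this kind in the genome. SRG1 is not among the targets, so its level was not analysed here. Its last 77 bases overlap the SER3 frame on the same strand, and reads from them can count toward SER3. How much they add was not tested.

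**Figure D2:**
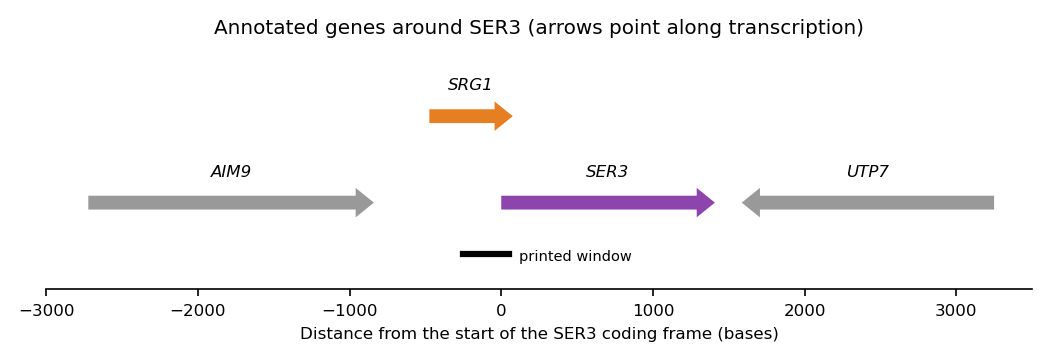
Map of the annotated genes around SER3, drawn to scale by distance in bases from the start of its coding frame, with arrows along the direction of transcription. SRG1 runs from -474 to 76 on this scale, across the start of SER3.

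The genes beside SER3 had other patterns. AIM9, upstream on the same strand with 839 bases between them, did not pass in SWI3 S237A (log2 -0.02 ± 0.07, adjusted p = 0.804) or in RPD3 S418A (log2 0.06 ± 0.07, adjusted p = 0.667), and fell in RPD3 KO (log2 -0.81 ± 0.07, adjusted p = 4.58e-07). UTP7, a ribosome biogenesis gene that faces SER3 from the other strand at 176 bases, rose in SWI3 S237A (log2 0.73 ± 0.18, adjusted p = 0.00492) and in RPD3 KO (log2 1.89 ± 0.19, adjusted p = 3.4e-06). Its log2 change was larger in RPD3 KO, whereas that of SER3 was larger in SWI3 S237A. In RPD3 S418A UTP7 did not pass (log2 -0.47 ± 0.19, adjusted p = 0.226).

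SER33 encodes a second form of the same dehydrogenase and lies on chromosome IX from 221081 to 222490 on the minus strand. SER33 had 380.4, 348 and 368 CPM in SWI3 S237A, 124, 114 and 126 in RPD3 S418A, 117, 109.8 and 115 in RPD3 KO, and 130.2, 98.9 and 100.1 in WT. All 3 SWI3 S237A libraries stood above the other 9, which overlapped between strains. SER33 was 3.33-fold higher in SWI3 S237A than in WT (log2 1.74 ± 0.10, adjusted p = 2.34e-08). It was also higher in SWI3 S237A than in RPD3 KO (log2 1.68 ± 0.10, adjusted p = 2.56e-08) and than in RPD3 S418A (log2 1.59 ± 0.10, adjusted p = 4.12e-08). In RPD3 KO the change from WT did not pass (log2 0.06 ± 0.10, adjusted p = 0.631), with a 95% interval of -0.16 to 0.27. It passed once WT replicate 1 was left out (log2 0.20, adjusted p = 0.0181), and with scaling by total counts alone (log2 0.24, adjusted p = 0.0365), which moves the median of all genes by 0.18. In RPD3 S418A it did not pass (log2 0.14 ± 0.10, adjusted p = 0.448), and passed without that library (log2 0.28, adjusted p = 0.0306).

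The balance between the pair differed by strain. On the scale of TPM (transcripts per M, per length, so that genes can be compared), SER3 averaged 338 ± 18.2 in SWI3 S237A, 19.6 ± 1.19 in RPD3 S418A, 65.2 ± 7.11 in RPD3 KO and 20.7 ± 4.2 in WT (SD, n = 3 each). SER33 averaged 255 ± 18.5 TPM in SWI3 S237A, 74.7 ± 4.22 in RPD3 S418A, 82.8 ± 5.12 in RPD3 KO and 69.2 ± 7.85 in WT. SER3 made up 57.0 ± 0.461% of the summed TPM of the pair in SWI3 S237A, 20.8 ± 0.0757% in RPD3 S418A, 44.0 ± 1.34% in RPD3 KO and 22.9 ± 1.72% in WT. It was the lesser of the pair in RPD3 S418A, RPD3 KO and WT, and the greater in SWI3 S237A.

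The log2 ratio of SER3 to SER33 (1 TPM added to each) was higher than in WT by 2.11 in SWI3 S237A and by 1.36 in RPD3 KO, and differed by -0.17 in RPD3 S418A. No mutant overlapped WT in this ratio (exact two-sided permutation p = 0.1 each, not below 0.05 with or without adjustment over the 6 ratio tests), and 0.1 is the smallest p that 3 against 3 libraries allow. The coding frames are identical at 82.4% of 1410 aligned bases, with a longest shared run of 56 bases. Of the 31-base words of SER3, 7.75% occur in SER33 or SRG1, and 4.35% of those of SER33 occur in SER3. Reads from such stretches can be split between the pair by the counting, so a small change of one beside a large change of the other is uncertain.

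**Figure D3:**
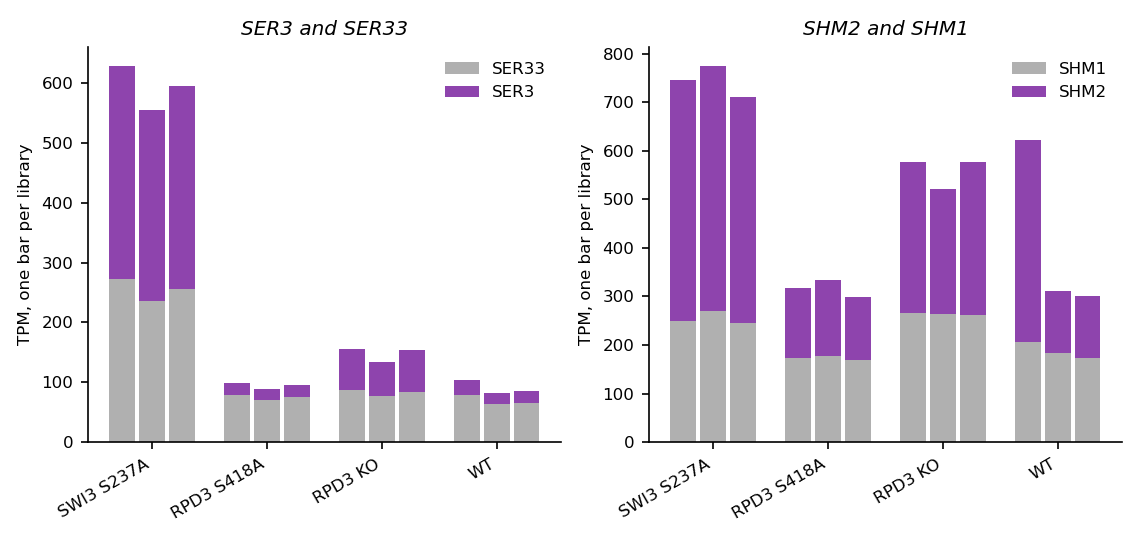
TPM of SER3 stacked on SER33 (left) and of SHM2 stacked on SHM1 (right), with one bar per library, grouped by strain. SER3 makes up 56.6 to 57.5% of its pair in SWI3 S237A and 21.1 to 24.5% in WT.

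SER1, the phosphoserine aminotransferase of the next step (chromosome XV, 679357 to 680544, plus strand), rose in SWI3 S237A. SER1 had 468, 464 and 460.0 CPM in SWI3 S237A, 199, 200.2 and 216 in RPD3 S418A, 233, 256 and 254 in RPD3 KO, and 341, 193 and 191 in WT. Every SWI3 S237A library was above every other library, and WT replicate 1 was above the remaining WT, RPD3 S418A and RPD3 KO libraries. The level in SWI3 S237A was 1.92-fold that in WT (log2 0.94 ± 0.18, adjusted p = 0.000865), 1.88-fold that in RPD3 KO (log2 0.91 ± 0.18, adjusted p = 0.000972) and 2.26-fold that in RPD3 S418A (log2 1.18 ± 0.18, adjusted p = 0.00014). In RPD3 KO the change from WT did not pass (log2 0.04 ± 0.18, adjusted p = 0.872), and passed without WT replicate 1 (log2 0.37, adjusted p = 0.000148). In RPD3 S418A it did not pass (log2 -0.24 ± 0.18, adjusted p = 0.503). GSP2, which faces SER1 from the other strand at 899 bases, fell in SWI3 S237A (log2 -2.07 ± 0.16, adjusted p = 6.47e-07).

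SER2 encodes the phosphatase of the last step (chromosome VII, 911883 to 912812, plus strand) and passed in none of the 6 comparisons. It had 84.4, 82.5 and 82.1 CPM in SWI3 S237A, 79.5, 75.2 and 76.0 in RPD3 S418A, 69.5, 75.4 and 77.9 in RPD3 KO, and 98.3, 74.2 and 74.8 in WT. The SWI3 S237A libraries lay above all RPD3 S418A and RPD3 KO libraries, and the WT libraries, with replicate 1 the highest of all 12, overlapped every mutant. The change from WT was 0.01 ± 0.10 in SWI3 S237A (log2, 95% interval -0.20 to 0.22, adjusted p = 0.934), -0.10 ± 0.10 in RPD3 S418A (adjusted p = 0.607) and -0.15 ± 0.10 in RPD3 KO (95% interval -0.36 to 0.06, adjusted p = 0.181). With WT replicate 1 left out the change in SWI3 S237A passed (log2 0.16, adjusted p = 0.0474). Along the chain, the log2 change of SWI3 S237A from WT was thus 3.87 and 1.74 for the dehydrogenase genes, 0.94 for the aminotransferase gene and 0.01 for the phosphatase gene.

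**Figure D4:**
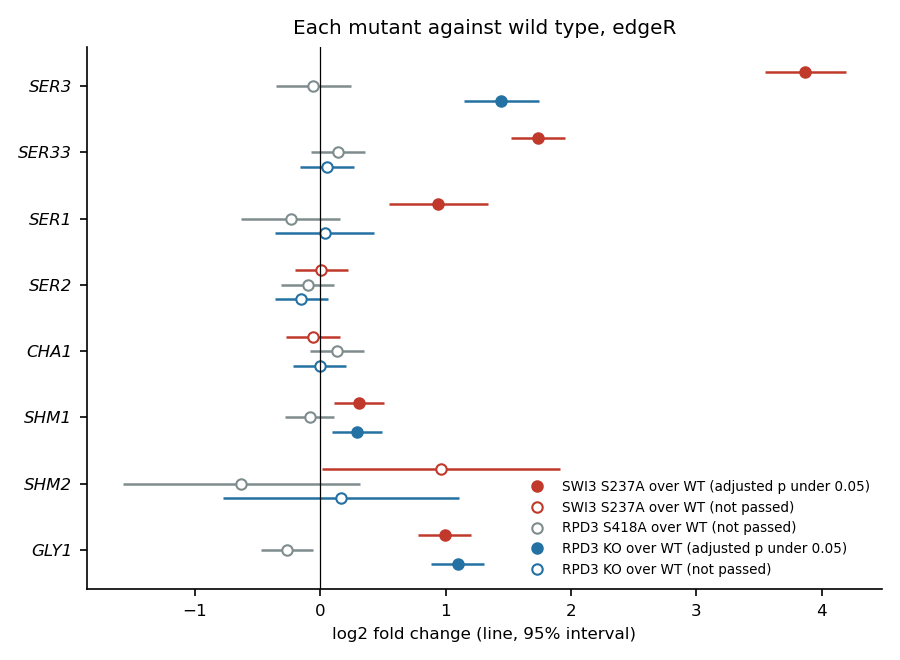
Log2 fold change of each mutant over WT for the 8 genes, with 95% intervals; filled points passed at an adjusted p under 0.05 and open points did not. SER3 lies at 3.87 in SWI3 S237A and 1.44 in RPD3 KO, CHA1 and SER2 lie between -0.15 and 0.13 in all 3 mutants, and SHM2 has the widest intervals.

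GLY1, the threonine aldolase that yields glycine (chromosome V, 67629 to 68792, minus strand), rose in SWI3 S237A and RPD3 KO. It had 709.9, 851 and 764 CPM in SWI3 S237A, 328, 333 and 311 in RPD3 S418A, 892, 773 and 833 in RPD3 KO, and 355, 375 and 439.6 in WT. The SWI3 S237A and RPD3 KO libraries overlapped each other and lay above all others, and the RPD3 S418A libraries lay below all WT libraries. GLY1 was 1.99-fold higher than WT in SWI3 S237A (log2 0.99 ± 0.10, adjusted p = 2.54e-06) and 2.14-fold higher in RPD3 KO (log2 1.10 ± 0.10, adjusted p = 5.22e-07). Between those mutants SWI3 S237A over RPD3 KO did not pass (log2 -0.10 ± 0.10, adjusted p = 0.358), with a 95% interval of -0.31 to 0.10, and passed when libraries were scaled by total counts alone (log2 -0.24, adjusted p = 0.0423), a scaling that moves the median of all genes by -0.13 there. In RPD3 S418A the change from WT did not pass either (log2 -0.27 ± 0.10, adjusted p = 0.18). GLY1 was lower in RPD3 S418A than in RPD3 KO (log2 -1.36 ± 0.10, adjusted p = 6.43e-08), and higher in SWI3 S237A than in RPD3 S418A (log2 1.26 ± 0.10, adjusted p = 2.68e-07). IES6, read away from GLY1 on the other strand across 964 bases, rose in SWI3 S237A (log2 1.27 ± 0.12, adjusted p = 1.87e-06) and in RPD3 KO (log2 0.29 ± 0.12, adjusted p = 0.0438). FRD1, the neighbour on the other side, on the same strand at 831 bases, fell in SWI3 S237A (log2 -0.28 ± 0.08, adjusted p = 0.00705) and in RPD3 KO (log2 -0.67 ± 0.08, adjusted p = 5.64e-06).

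SHM2 encodes the cytosolic serine hydroxymethyltransferase (chromosome XII, 257992 to 259401, minus strand), and its comparison with WT turned on a single library. It had 786, 846 and 764 CPM in SWI3 S237A, 261, 292 and 242 in RPD3 S418A, and 478, 417 and 486 in RPD3 KO. The WT libraries had 786, 223 and 221 CPM, so WT replicate 1 reached the level of SWI3 S237A while replicates 9 and 17 lay below every mutant library. With all 3 WT libraries, SHM2 did not pass in SWI3 S237A (log2 0.96 ± 0.42, adjusted p = 0.0742), RPD3 S418A (log2 -0.63 ± 0.42, adjusted p = 0.447) or RPD3 KO (log2 0.17 ± 0.42, adjusted p = 0.738). Without WT replicate 1 it rose in SWI3 S237A (log2 1.85, adjusted p = 8.87e-10) and in RPD3 KO (log2 1.05, adjusted p = 1.24e-07), and the change in RPD3 S418A was of the other sign (log2 0.26, adjusted p = 0.122). The comparison of SWI3 S237A with RPD3 S418A uses no WT mean, though the spread in its fit was shared with the WT libraries. There SHM2 was 3.01-fold higher in SWI3 S237A (log2 1.59 ± 0.43, adjusted p = 0.00839). SWI3 S237A over RPD3 KO did not pass with the spread shared by all 4 strains (log2 0.80 ± 0.42, adjusted p = 0.124), and passed when those 6 libraries were fitted alone (log2 0.79, adjusted p = 5.61e-08). The same held for RPD3 S418A against RPD3 KO, with all strains (log2 -0.80 ± 0.42, adjusted p = 0.115) and with those 6 libraries (log2 -0.86, adjusted p = 1.25e-05).

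SHM1, the mitochondrial form of that enzyme (chromosome II, 736264 to 737736, plus strand), changed by less than 1.5-fold in every comparison. It had 438, 500.4 and 446 CPM in SWI3 S237A, 341, 362 and 352 in RPD3 S418A, 451, 469.8 and 448 in RPD3 KO, and 429, 354 and 335 in WT. The SWI3 S237A and RPD3 KO libraries all lay above the WT libraries, though close to WT replicate 1. SHM1 was 1.24-fold higher than WT in SWI3 S237A (log2 0.31 ± 0.09, adjusted p = 0.0111) and 1.22-fold higher in RPD3 KO (log2 0.29 ± 0.09, adjusted p = 0.0123). The SWI3 S237A call ended without SWI3 S237A replicate 10 (log2 0.25, adjusted p = 0.0563) and in the fit of those 6 libraries alone (log2 0.31, adjusted p = 0.0624). The RPD3 KO call ended without WT replicate 9 (log2 0.26, adjusted p = 0.0504) or 17 (log2 0.22, adjusted p = 0.0552). SHM1 was also higher in SWI3 S237A than in RPD3 S418A (log2 0.39 ± 0.09, adjusted p = 0.00221), and lower in RPD3 S418A than in RPD3 KO (log2 -0.38 ± 0.09, adjusted p = 0.00241). In RPD3 S418A the change from WT did not pass (log2 -0.08 ± 0.09, adjusted p = 0.651).

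Of the summed TPM of SHM2 and SHM1, SHM2 made up 66.5, 65.1 and 65.4% in SWI3 S237A, 45.4, 47.2 and 43.3% in RPD3 S418A, 53.8, 49.4 and 54.4% in RPD3 KO, and 66.8, 40.9 and 42.1% in WT. The log2 ratio of SHM2 to SHM1 differed from WT by 0.93 in SWI3 S237A (exact two-sided permutation p = 0.4), -0.28 in RPD3 S418A (exact permutation p = 1) and 0.14 in RPD3 KO (exact permutation p = 1). Leaving out WT replicate 1 gave differences of 1.43, 0.22 and 0.64 for these mutants. No 31-base word of either gene occurs in another gene of the reference, unlike in the SER3 and SER33 pair.

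CHA1, the serine and threonine deaminase that lets yeast use serine as a nitrogen source (chromosome III, 15798 to 16880, minus strand), passed in none of the 6 comparisons. It had 332, 339.8 and 353 CPM in SWI3 S237A, 334, 385 and 449.6 in RPD3 S418A, 349.9, 337 and 375 in RPD3 KO, and 347, 339 and 379 in WT. The strains overlapped throughout, with the widest spread in RPD3 S418A. The change from WT was -0.06 ± 0.10 in SWI3 S237A (log2, 95% interval -0.27 to 0.16, adjusted p = 0.638), 0.13 ± 0.10 in RPD3 S418A (95% interval -0.08 to 0.35, adjusted p = 0.485) and 0.00 ± 0.10 in RPD3 KO (95% interval -0.22 to 0.21, adjusted p = 0.974). Both neighbours of CHA1 changed in SWI3 S237A and in RPD3 KO, where 60% and 69.9% of all genes changed. In RPD3 S418A neither HMLALPHA1 (log2 -0.06 ± 0.10, adjusted p = 0.802) nor VAC17 (log2 -0.06 ± 0.11, adjusted p = 0.827) passed. HMLALPHA1, of the silent mating locus HML, fell in SWI3 S237A (log2 -1.64 ± 0.11, adjusted p = 7.11e-08) and in RPD3 KO (log2 -0.67 ± 0.10, adjusted p = 7.91e-05). HML carries a copy of mating-type genes, and which copy its reads came from was not tested. VAC17, read away from CHA1 across 409 bases, rose in SWI3 S237A (log2 0.99 ± 0.11, adjusted p = 9.48e-06) and in RPD3 KO (log2 1.00 ± 0.11, adjusted p = 4.78e-06).

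The letters TGACTC form the core that the amino acid activator Gcn4 and the purine and one-carbon activator Bas1 are known to bind. On either strand they occur in the windows of SER33, SER1, SER2 and SHM2, once each, and not in those of SER3, CHA1, SHM1 and GLY1. Of all 6001 such windows in the genome 7.98% hold them. The windows of SER33, SER1 and SHM2 are printed because these genes are the holders of the core that were higher in SWI3 S237A than in RPD3 S418A (chrIX:222441-222740, minus strand, chrXV:679107-679406, plus strand, and chrXII:259352-259651, minus strand, R64, from the RefSeq genome). Each runs 5′ to 3′ along its gene, with the core or its reverse complement GAGTCA in capitals.
SER33: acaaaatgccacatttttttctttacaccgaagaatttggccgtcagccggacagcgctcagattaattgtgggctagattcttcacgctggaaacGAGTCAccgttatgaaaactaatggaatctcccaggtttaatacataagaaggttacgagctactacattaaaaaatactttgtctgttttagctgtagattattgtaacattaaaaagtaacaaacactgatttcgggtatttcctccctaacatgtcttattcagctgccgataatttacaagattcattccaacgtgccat
SER1: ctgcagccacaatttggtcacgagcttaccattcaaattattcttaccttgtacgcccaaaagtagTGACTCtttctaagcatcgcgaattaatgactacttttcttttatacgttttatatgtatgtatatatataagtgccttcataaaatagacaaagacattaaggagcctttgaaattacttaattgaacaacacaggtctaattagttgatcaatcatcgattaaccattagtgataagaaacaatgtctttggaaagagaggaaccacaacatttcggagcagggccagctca
SHM2: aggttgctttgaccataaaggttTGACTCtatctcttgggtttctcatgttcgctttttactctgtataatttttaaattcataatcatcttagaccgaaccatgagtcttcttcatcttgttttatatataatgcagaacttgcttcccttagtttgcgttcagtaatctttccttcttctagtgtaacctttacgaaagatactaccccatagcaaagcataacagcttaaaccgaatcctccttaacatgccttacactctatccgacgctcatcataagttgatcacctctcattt
The core lies at -154 to -149 in SER33, at -184 to -179 in SER1 and at -227 to -222 in SHM2. SER2 holds it at -155 to -150 and did not pass between SWI3 S237A and RPD3 S418A (edgeR adjusted p = 0.332). SER3, SHM1 and GLY1 were higher in SWI3 S237A there and lack the core. A link between the core and the changes was not tested. The letters are a description of the window and do not show binding. The Ume6 core GGCGGC, on either strand, occurs in the window of CHA1 alone among the 8, and in 5.13% of all windows.

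Of the regulators, GCN4 and BAS1 rose in SWI3 S237A. GCN4 averaged 1908 ± 36.9 CPM in SWI3 S237A, 886 ± 74.7 in RPD3 S418A, 990.0 ± 69.2 in RPD3 KO and 968 ± 80.6 in WT, and rose in SWI3 S237A (log2 0.98 ± 0.09, adjusted p = 1.22e-06) but did not pass in RPD3 KO (log2 0.03 ± 0.09, adjusted p = 0.754). GCN4 is known to be controlled mainly at translation, which these data do not measure. BAS1 averaged 45.6 ± 1.09 CPM in SWI3 S237A, 19.5 ± 1.33 in RPD3 S418A, 78.1 ± 3.34 in RPD3 KO and 23.5 ± 2.54 in WT, and rose in SWI3 S237A (log2 0.96 ± 0.08, adjusted p = 8.64e-07) and in RPD3 KO (log2 1.73 ± 0.08, adjusted p = 2.24e-09). PHO2, the partner of Bas1, fell in SWI3 S237A (log2 -0.34 ± 0.07, adjusted p = 0.00172) and in RPD3 KO (log2 -0.37 ± 0.08, adjusted p = 0.000748). CHA4 averaged 30.4 ± 2.75 CPM in SWI3 S237A, 28.1 ± 2.14 in RPD3 S418A, 24.3 ± 1.33 in RPD3 KO and 27.3 ± 1.95 in WT, and passed in neither SWI3 S237A (log2 0.15 ± 0.09, adjusted p = 0.155) nor RPD3 KO (log2 -0.17 ± 0.09, adjusted p = 0.117).

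Of 4 genes whose products are known to keep SER3 repressed, SNF2, the SWI/SNF motor subunit, rose in SWI3 S237A (log2 0.47 ± 0.09, adjusted p = 0.000557) and in RPD3 KO (log2 0.33 ± 0.09, adjusted p = 0.00542). The histone chaperone gene SPT2 fell in SWI3 S237A (log2 -0.27 ± 0.06, adjusted p = 0.00247) and in RPD3 KO (log2 -0.19 ± 0.06, adjusted p = 0.0182). DESeq2 called 3 of the 4 genes in SWI3 S237A and 1 in RPD3 KO, in place of 2 in each with edgeR. Of all tested genes 60% changed in SWI3 S237A and 69.9% in RPD3 KO with edgeR. These counts were thus near the background in SWI3 S237A and below it in RPD3 KO. The elongation factor gene SPT6 did not pass in SWI3 S237A (log2 0.21 ± 0.10, adjusted p = 0.0758) or RPD3 KO (log2 0.10 ± 0.10, adjusted p = 0.388), nor did the histone chaperone gene SPT16 (log2 0.05 ± 0.08, adjusted p = 0.587 in SWI3 S237A and log2 0.01 ± 0.08, adjusted p = 0.875 in RPD3 KO).

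**Figure D5:**
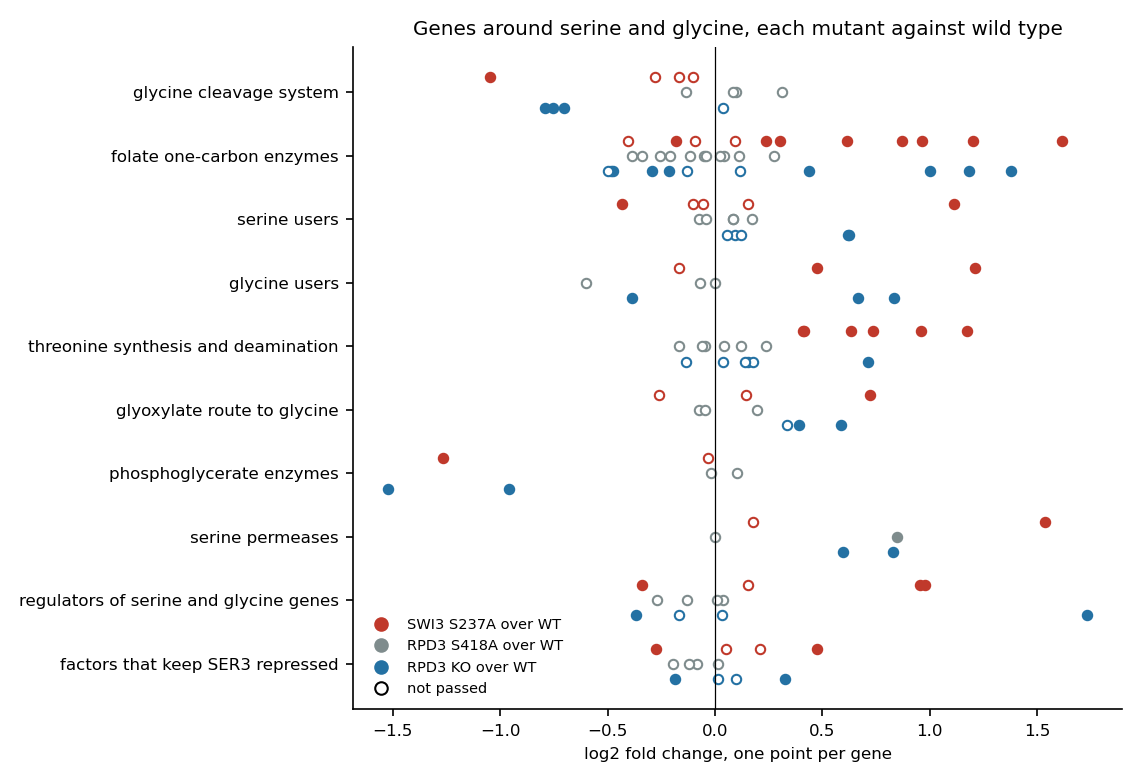
Log2 fold change over WT of 44 genes in 10 lists around serine and glycine, with one point per gene, filled where the adjusted p was under 0.05. The threonine genes all lie right of 0 in SWI3 S237A (0.41 to 1.17), and the RPD3 S418A points are open except that of AGP1 at 0.85.

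Around the 8 genes, 44 genes of neighbouring steps were set out in 10 lists. In SWI3 S237A 21 rose and 6 fell, in RPD3 S418A 1 rose and 0 fell (6 at an unadjusted p under 0.05, and 1 called by DESeq2), and in RPD3 KO 15 rose and 12 fell. Over all tested genes 28.7% rose, 31.3% fell and 60% changed in SWI3 S237A. In RPD3 S418A 0.822% rose, 1.2% fell and 2.02% changed, and in RPD3 KO 31.9% rose, 38% fell and 69.9% changed. With edgeR the number called in either direction was thus near the background in SWI3 S237A and below it in RPD3 KO. DESeq2 called 29 of the 44 in SWI3 S237A and 30 in RPD3 KO, where it called 3851 and 4415 genes in all. By DESeq2 the RPD3 KO count was near the background.

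All 6 genes of threonine synthesis and deamination rose in SWI3 S237A, with a median log2 change of 0.69 where 28.7% of all genes rose and their median was -0.02; threonine is the substrate of Gly1. ILV1, a deaminase related to Cha1, had the largest change (log2 1.17 ± 0.08, adjusted p = 6.76e-08), followed by the aspartate semialdehyde dehydrogenase gene HOM2 (log2 0.96 ± 0.09, adjusted p = 2.84e-06) and the homoserine dehydrogenase gene HOM6 (log2 0.74 ± 0.09, adjusted p = 2.88e-05). The threonine synthase gene THR4 (log2 0.64 ± 0.08, adjusted p = 1.46e-05), the aspartate kinase gene HOM3 (log2 0.41 ± 0.07, adjusted p = 0.000384) and the homoserine kinase gene THR1 (log2 0.41 ± 0.08, adjusted p = 0.000689) had smaller changes. In RPD3 KO 1 of the 6 passed with edgeR, ILV1 (log2 0.71 ± 0.08, adjusted p = 2.85e-06), and 4 with DESeq2. Of all tested genes 31.9% rose and 69.9% changed there with edgeR, so the 1 was below the background. DESeq2 called 4415 genes in all there, against 4425 with edgeR. In RPD3 S418A 0 passed with edgeR or DESeq2, and 1 had an unadjusted p under 0.05. Set directly against RPD3 KO, all 6 were higher in SWI3 S237A, where 32.3% of all genes were higher and 64.4% differed.

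The glycine cleavage system breaks glycine down in mitochondria and feeds folate. In RPD3 KO 3 of its 4 genes fell: GCV1 (log2 -0.79 ± 0.15, adjusted p = 0.000517), GCV3 (log2 -0.70 ± 0.14, adjusted p = 0.000507) and LPD1, which other mitochondrial dehydrogenases share (log2 -0.76 ± 0.10, adjusted p = 1.77e-05). Of all genes 38% fell and 69.9% changed there, so that the share of the list called was near the background. In SWI3 S237A GCV1 fell (log2 -1.05 ± 0.15, adjusted p = 9.32e-05), and GCV3 (log2 -0.28 ± 0.13, adjusted p = 0.0912) and LPD1 (log2 -0.17 ± 0.10, adjusted p = 0.155) did not pass. GCV2 had 75.2, 69.2 and 74.0 CPM in SWI3 S237A, 69.7, 74.1 and 69.7 in RPD3 S418A, 80.6, 77.9 and 82.4 in RPD3 KO, and 124, 51.5 and 59.4 in WT, so that WT replicate 1 again stood apart. GCV2 passed in neither SWI3 S237A (log2 -0.10 ± 0.26, adjusted p = 0.751) nor RPD3 KO (log2 0.04 ± 0.26, adjusted p = 0.907). Without WT replicate 1 it rose in SWI3 S237A (log2 0.39, adjusted p = 0.00037) and in RPD3 KO (log2 0.54, adjusted p = 1.83e-05). LPD1 then also fell in SWI3 S237A (log2 -0.28, adjusted p = 0.00288). Without that library the list had 1 higher and 2 lower in SWI3 S237A, 2 higher and 0 lower in RPD3 S418A, and 1 higher and 3 lower in RPD3 KO. Of all tested genes 63.7%, 4.28% and 71.3% changed in these strains in that fit.

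Of the 11 folate one-carbon genes, 7 rose and 1 fell in SWI3 S237A, 0 passed in RPD3 S418A (1 at an unadjusted p under 0.05 in edgeR, 0 called by DESeq2), and 4 rose and 4 fell in RPD3 KO. Of all genes 60% changed in SWI3 S237A and 69.9% in RPD3 KO, so the RPD3 KO count was near the background. Left without WT replicate 1, the list had 8 higher and 1 lower in SWI3 S237A, and 5 higher and 3 lower in RPD3 KO. In that fit 63.7% and 71.3% of all genes changed in these mutants. In SWI3 S237A the smallest p-values were those of the methylenetetrahydrofolate reductase gene MET13 (log2 1.62 ± 0.09, adjusted p = 2.49e-08), the trifunctional folate enzyme gene ADE3 (log2 1.20 ± 0.08, adjusted p = 1.06e-07) and the dihydrofolate reductase gene DFR1 (log2 0.87 ± 0.14, adjusted p = 0.000192). In RPD3 KO they were those of FOL1 (log2 1.38 ± 0.11, adjusted p = 2.86e-07) and FOL3 (log2 -0.47 ± 0.07, adjusted p = 9.3e-05), of folate synthesis, and of DFR1 (log2 1.00 ± 0.14, adjusted p = 3.95e-05).

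Among genes that use serine, the tryptophan synthase gene TRP5 rose in SWI3 S237A (log2 1.11 ± 0.09, adjusted p = 7.98e-07) and in RPD3 KO (log2 0.62 ± 0.09, adjusted p = 6.64e-05). CHO1, of phosphatidylserine synthesis, fell in SWI3 S237A (log2 -0.43 ± 0.08, adjusted p = 0.000302) and did not pass in RPD3 KO (log2 0.12 ± 0.07, adjusted p = 0.167). The cystathionine synthase gene CYS4 did not pass in SWI3 S237A (log2 -0.10 ± 0.07, adjusted p = 0.244) and rose in RPD3 KO (log2 0.62 ± 0.07, adjusted p = 8.47e-06). The sphingolipid genes LCB1 and LCB2 passed in neither. DESeq2 called 3 of these 5 genes in SWI3 S237A and 3 in RPD3 KO, in place of 2 in each with edgeR. Of all tested genes 60% changed in SWI3 S237A with edgeR, so the counts there were not above the background. Without WT replicate 1, 4 of these 5 genes rose in RPD3 KO in place of 2, with LCB2 (log2 0.18, adjusted p = 0.0276) and CHO1 (log2 0.17, adjusted p = 0.0472) added. Of all tested genes 71.3% changed there in that fit and 69.9% with all libraries, so the 4 were near the background and the 2 below it.

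Among glycine users HEM1, the first step of heme synthesis, rose in SWI3 S237A (log2 0.47 ± 0.07, adjusted p = 9.94e-05) and in RPD3 KO (log2 0.67 ± 0.07, adjusted p = 3.12e-06). The purine synthesis gene ADE57 rose in SWI3 S237A (log2 1.21 ± 0.31, adjusted p = 0.0069) and in RPD3 KO (log2 0.83 ± 0.31, adjusted p = 0.0342). Its levels of 736, 300.0 and 284 CPM in WT replicates 1, 9 and 17 put replicate 1 apart, as for SHM2, and with that library left out ADE57 had larger rises in SWI3 S237A (log2 1.80, adjusted p = 2.16e-09) and in RPD3 KO (log2 1.42, adjusted p = 1.14e-08). The glutathione synthetase gene GSH2 did not pass in SWI3 S237A (log2 -0.17 ± 0.07, adjusted p = 0.0545) and fell in RPD3 KO (log2 -0.39 ± 0.07, adjusted p = 0.000288). In the fit that left out WT replicate 1 it also fell in SWI3 S237A (log2 -0.20, adjusted p = 0.0239).

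Upstream, PGK1, which makes 3-phosphoglycerate in glycolysis, did not pass in SWI3 S237A (log2 -0.03 ± 0.09, adjusted p = 0.759) and fell in RPD3 KO (log2 -1.52 ± 0.09, adjusted p = 1.72e-08). GPM1, which carries it on down glycolysis, fell in SWI3 S237A (log2 -1.27 ± 0.08, adjusted p = 3.1e-08) and in RPD3 KO (log2 -0.96 ± 0.08, adjusted p = 1.87e-07). Of the glyoxylate route, the isocitrate lyase gene ICL1 rose in SWI3 S237A (log2 0.72 ± 0.10, adjusted p = 3.53e-05) and in RPD3 KO (log2 0.39 ± 0.10, adjusted p = 0.00287). The malate synthase gene MLS1 did not pass in SWI3 S237A (log2 0.15 ± 0.20, adjusted p = 0.552) and rose in RPD3 KO (log2 0.59 ± 0.20, adjusted p = 0.0199). The glyoxylate aminotransferase gene AGX1, which yields glycine, did not pass in SWI3 S237A (log2 -0.26 ± 0.18, adjusted p = 0.229) or RPD3 KO (log2 0.34 ± 0.18, adjusted p = 0.109). When WT replicate 1 was left out this list gave 1 higher and 1 lower in SWI3 S237A and 1 higher in RPD3 KO. Of all genes 63.7% and 71.3% changed in these mutants in that fit. AGX1 was then lower in SWI3 S237A (log2 -0.46, adjusted p = 0.00761), and MLS1 no longer passed in RPD3 KO (log2 0.34, adjusted p = 0.0509).

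The amino acid permease gene GNP1 had 578, 589.5 and 595 CPM in SWI3 S237A, 220.2, 197 and 190.5 in RPD3 S418A, 375, 354 and 350.2 in RPD3 KO, and 207, 204 and 196 in WT. The SWI3 S237A libraries were highest and the RPD3 KO libraries second, the order seen for SER3. GNP1 rose in SWI3 S237A (log2 1.54 ± 0.07, adjusted p = 2.48e-09) and in RPD3 KO (log2 0.83 ± 0.07, adjusted p = 3.52e-07). The permease gene AGP1 did not pass in SWI3 S237A (log2 0.17 ± 0.16, adjusted p = 0.377), and rose in RPD3 S418A (log2 0.85 ± 0.16, adjusted p = 0.0237) and in RPD3 KO (log2 0.60 ± 0.16, adjusted p = 0.00647).

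In RPD3 S418A 0 of the 8 serine and glycine genes passed with edgeR and 0 with DESeq2, and 1, GLY1, had an unadjusted p under 0.05 in edgeR. Log2 changes from WT ran from -0.63 for SHM2 to 0.14 for SER33. Against RPD3 KO, RPD3 S418A had 3 of the 8 lower (SER3, GLY1 and SHM1) and 0 higher, where 33.3% of all genes were lower, 39.4% higher and 72.7% differed. SWI3 S237A against RPD3 KO had 3 higher (SER3, SER33 and SER1) and 0 lower, where 32.3% of all genes were higher, 32.1% lower and 64.4% differed. SWI3 S237A against RPD3 S418A had 6 higher (SER3, SER33, SER1, SHM1, SHM2 and GLY1) and 0 lower, where 31.9% were higher, 33.9% lower and 65.8% differed.

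On the TPM scale the 8 genes together summed to 2591 ± 35.3 in SWI3 S237A, 1126 ± 12.3 in RPD3 S418A, 1889 ± 117 in RPD3 KO and 1273 ± 210 in WT (SD, n = 3 each). In SWI3 S237A GLY1 (499 ± 32.9 TPM) and SHM2 (488 ± 20.6) were highest and SER2 (88.7 ± 3.71) lowest, and SER3 stood close to SER1 (359 ± 12.1) and CHA1 (308 ± 8.2). In WT CHA1 was highest with 292 ± 25.5 TPM and SER3 lowest with 20.7 ± 4.2.

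Genes whose levels ran most like those of a member were sought among 5356 genes by Pearson's r of log2(CPM + 1) over the 12 libraries. Since these are 4 strains of 3 libraries, such an r mostly describes the strain means. For SER3 they were BAT1, of branched-chain amino acid synthesis (r = 0.993), the sterol gene ERG1 (0.992) and the cell wall gene CRH1 (0.991). For SHM1 they were the adenosine kinase gene ADO1 (0.982), CCT3 (0.972) and NPA3 (0.968). For GLY1 they were CSR1 (0.993), SCT1 (0.992) and CAF120 (0.992). For CHA1 the values were lower, with GGC1 at 0.866, COX10 at 0.864 and MTC3 at 0.859.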

How the data were processed

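Stranded mRNA libraries were sequenced, per the labels' protocols. Trimmomatic 0.36 and kallisto 0.44.0 were used with R64, per the submitters' processing notes; the kallisto strand option is not known here. Each deposited library file holds, per its header, an estimated count, a TPM and a length in bases for 6713 targets. The authors' deposited tables from DESeq2 give a mean signal, a log2 fold change, a Wald score and a p-value per target. Unused columns numbered 0.

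Rounded estimated counts were fitted with edgeR 4.0.16 in R 4.3.3 (quasi-likelihood, robust, TMM, filterByExpr, 12 libraries in 1 fit, no covariate), which tested 6327 targets with all 8 genes among them. A call needs a Benjamini-Hochberg adjusted p under 0.05 over all of these. SE was taken from fold change and test statistic. Paralog ratios used log2(TPM + 1) and exact permutation tests over libraries. The procedure was tested on simulated counts. Alternatives were DESeq2 1.42.0, other scalings and filters, fits of the compared strains alone, and leaving out each library; list counts without WT replicate 1 were added after seeing the data.

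The 8 genes are named in each comparison with WT. For SWI3 S237A and RPD3 KO all genes of lists of up to 6 are named, and the 3 smallest p-values of longer ones. For RPD3 S418A most list genes are given no test in the text, and AGP1 is named as the gene called. Likeness is given for SER3, CHA1 and genes called in at least 2 comparisons with WT. Members and lists were chosen with earlier results of these data known. RefSeq R64 matched 6026 targets, 6021 at equal length. The 31-base words and windows were read from it, words on both strands.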

Additional observations from a re-analysis of the deposited data

How the results depend on the processing

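No paired analysis was run, because the groups share no replicate number in the labels. The numbers fall into runs that each hold every strain, but no label says whether a run marks a shared culture, batch or day. Leaving out each library in turn, the number of the 8 genes called ran from 4 to 7 in SWI3 S237A, 0 to 1 in RPD3 S418A and 2 to 6 in RPD3 KO against WT, and 3 to 3 for SWI3 S237A over RPD3 KO, 6 to 7 for SWI3 S237A over RPD3 S418A and 3 to 4 for RPD3 S418A over RPD3 KO. The upper ends against WT came without WT replicate 1. In those fits the genes called in all ran from 3381 to 4048 in SWI3 S237A and 4111 to 4528 in RPD3 KO against WT. For SWI3 S237A over RPD3 KO they ran from 3657 to 3748. With all libraries they were 3799, 4425 and 4075. With all libraries 65.8% of tested genes differed between SWI3 S237A and RPD3 S418A, and 72.7% between RPD3 S418A and RPD3 KO. Fits of the compared libraries alone called 5 in place of 3 for SWI3 S237A over RPD3 KO and 5 in place of 3 for RPD3 S418A over RPD3 KO, adding SHM2 and SER2 in the first and SHM2 and SER1 in the second. The first of these fits also called more genes in all, 4704 in place of 4075. Over all tested genes the count called in RPD3 S418A against WT was 128, against 314 with DESeq2, 29 with those 6 libraries alone, and 60 to 272 with single libraries left out (272 without WT replicate 1). The changes that turned sign under some alternative were all of genes not called. For RPD3 KO against WT, CHA1 became 0.043 with DESeq2, 0.044 with RLE factors, 0.18 with total counts and 0.046 with those libraries alone, and SER2 0.033 with total counts. For SWI3 S237A over RPD3 KO, SHM1 became -0.0040 with DESeq2, -0.0045 with RLE factors and -0.12 with total counts. For RPD3 S418A over RPD3 KO, SER2 became -0.0013 with DESeq2, -0.0019 with RLE factors, -0.12 with total counts and -0.013 with those libraries alone, and with total counts SER33 became -0.084 and CHA1 -0.034. Total counts move the median of all genes by 0.18 in RPD3 KO against WT, by -0.13 in SWI3 S237A over RPD3 KO and by -0.17 in RPD3 S418A over RPD3 KO, where SER1 then passed (log2 -0.44, adjusted p = 0.0293). Over single libraries left out, the log2 changes ran in RPD3 KO against WT from -0.015 to 0.20 for SER33, -0.11 to 0.37 for SER1, -0.047 to 0.045 for CHA1 and -0.13 to 1.05 for SHM2. In RPD3 S418A against WT they ran from -0.19 to 0.16 for SER3, -0.38 to 0.097 for SER1, -0.17 to 0.046 for SER2, -0.16 to 0.029 for SHM1 and -0.93 to 0.26 for SHM2. For SWI3 S237A they ran from -0.061 to 0.16 for SER2 against WT and from -0.046 to 0.040 for SHM1 over RPD3 KO. The difference from WT in the log2 ratio of SHM2 to SHM1 ran from 0.66 to 1.43 in SWI3 S237A, -0.55 to 0.22 in RPD3 S418A and -0.13 to 0.64 in RPD3 KO. Beyond the effect of WT replicate 1, the causes were not tested.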
